A study of Mus musculus with 6 samples.

Results

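The genes described here are 10 genes of Bardet-Biedl syndrome, an inherited disorder of primary cilia with retinal degeneration, found by symbol among the 22558 genes of the deposited table. They are Arl6, 7 genes of the BBSome core (Bbs1, Bbs2, Bbs4, Bbs5, Bbs7, Bbs9 and Ttc8) and 2 chaperonin-like genes (Bbs10 and Bbs12), and all 10 were found and passed the filter on low counts. RNA came from the eye of mice at postnatal day 21, in 3 libraries labelled BC027072 -/- (called knockout) and 3 labelled wild type, both of strain C57BL/6. The deleted gene, BC027072, corresponds to human PCARE (C2orf71), whose protein works at the cilium of photoreceptors and whose loss causes retinitis pigmentosa. How the knockout allele was made, the sex of the mice and whether each library is a separate animal are not given in the sources used here, so the p-values measure only the spread between these libraries.

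The BBSome is a coat-like complex that moves membrane proteins into and out of cilia. Arl6, a small GTPase of the ARF-like family, brings it to the membrane, and chaperonin-like proteins help it to assemble. In the retina the outer segment of a photoreceptor is a modified cilium, and loss of BBSome genes in mice is known to let proteins that do not belong there collect in it and to end in photoreceptor loss.

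The knockout libraries held 8444913, 5695530 and 10343820 fragments, and the wild type libraries 21815950, 14341398 and 8441944. BC027072 itself had 3, 2 and 3 fragments in the knockout libraries, against 5854, 3667 and 2251 in the wild type libraries, so each library matched its label. The eye's defining markers were present. Summed over each list, rod genes were at 21303 to 34662 CPM (fragments scaled to library size) across the libraries. Cone genes were at 439 to 683 CPM and lens genes at 51782 to 62047 CPM. Of 13 rod genes, 12 fell and 1, Sag, rose, all 6 cone genes fell, and of 5 lens genes 0 passed in edgeR. Microglial markers rose, 5 of 6. Of all genes tested, 2.89% were called higher and 3.35% lower. With a sex term 10 rod genes, 3 cone genes and 1 microglial gene still passed, beside 1.58% of all genes. The libraries also differ in sex, which the labels do not give. Knockout replicates 1 and 3 held 2047 and 2957 fragments of 4 Y-linked genes, and 11 and 18 of Xist, which coats an inactive X chromosome. Knockout replicate 2 held 2 Y-linked fragments and 5905 of Xist, and the wild type libraries 1 to 7 and 7763 to 17749. Knockout replicate 2 also stood apart from the other knockout libraries on the second principal component of log2 CPM (−19.1, against 13.2 and 5.31). The wild type libraries, which hold Xist as it does, lay apart from it too, at 3.62, −5.29 and 2.32. Most calls below are also given with a sex term and without that library. Neither fit separates sex from genotype with replication: the genotype difference in the fit with a sex term rests on knockout replicate 2 alone, and without that library genotype and sex cannot be told apart. In bulk RNA of the eye, fewer cells of a type and less RNA per cell cannot be told apart.

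Arl6 was the only member to rise, and it nearly doubled. Its level in CPM (fragments scaled to library size) was 140, 148 and 155 in the knockout libraries, against 71.4, 88.1 and 72.5 in the wild type libraries. The lowest knockout library lay far above the highest wild type library. The means were 148 ± 7.48 CPM in knockout and 77.3 ± 9.33 CPM in wild type (SD, n = 3 each), and the log2 fold change, knockout over wild type, was 0.93 ± 0.08 (SE, adjusted p = 1.58e-06), or 1.91-fold. Fold changes and adjusted p-values of genes are from edgeR's quasi-likelihood test fitted over 14919 genes, with Benjamini-Hochberg adjustment over all of them and a threshold of 0.05. Of those genes 2.89% were called higher and 3.35% lower, 6.24% in all. In 11.6% of them all knockout values lay above all wild type values, as they did for Arl6.

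Arl6 passed whichever library was left out. Leaving out each library in turn gave log2 fold changes of 0.87 to 1.04, with 0.93 without knockout replicate 2 (adjusted p = 5.87e-05). With a sex term the value, which rests on knockout replicate 2 as the only knockout library of the wild type libraries' sex, was 0.94 (adjusted p = 0.00124), in a fit that called 0.61% of all genes higher and 0.965% lower, 1.58% in all. Restricted to libraries that hold Xist it was 0.93, where the only knockout library is assumed to vary like the wild type libraries. That fit rests on the same contrast as the fit with a sex term, so it is not a further check. In DESeq2 Arl6 passed as well (adjusted p = 7.14e-23). On the authors' FPKM (fragments scaled to transcript length and library size), Arl6 had 76.3, 77.3 and 95.5 in knockout and 39.0, 39.8 and 49.4 in wild type, and the groups did not overlap. A limma fit on log2(FPKM + 1) gave the same size, 0.94, but an adjusted p of 0.112. In the authors' deposited table Arl6 had 83.0 FPKM in knockout and 42.7 FPKM in wild type with a q-value of 0.00162.

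**Figure D1:**
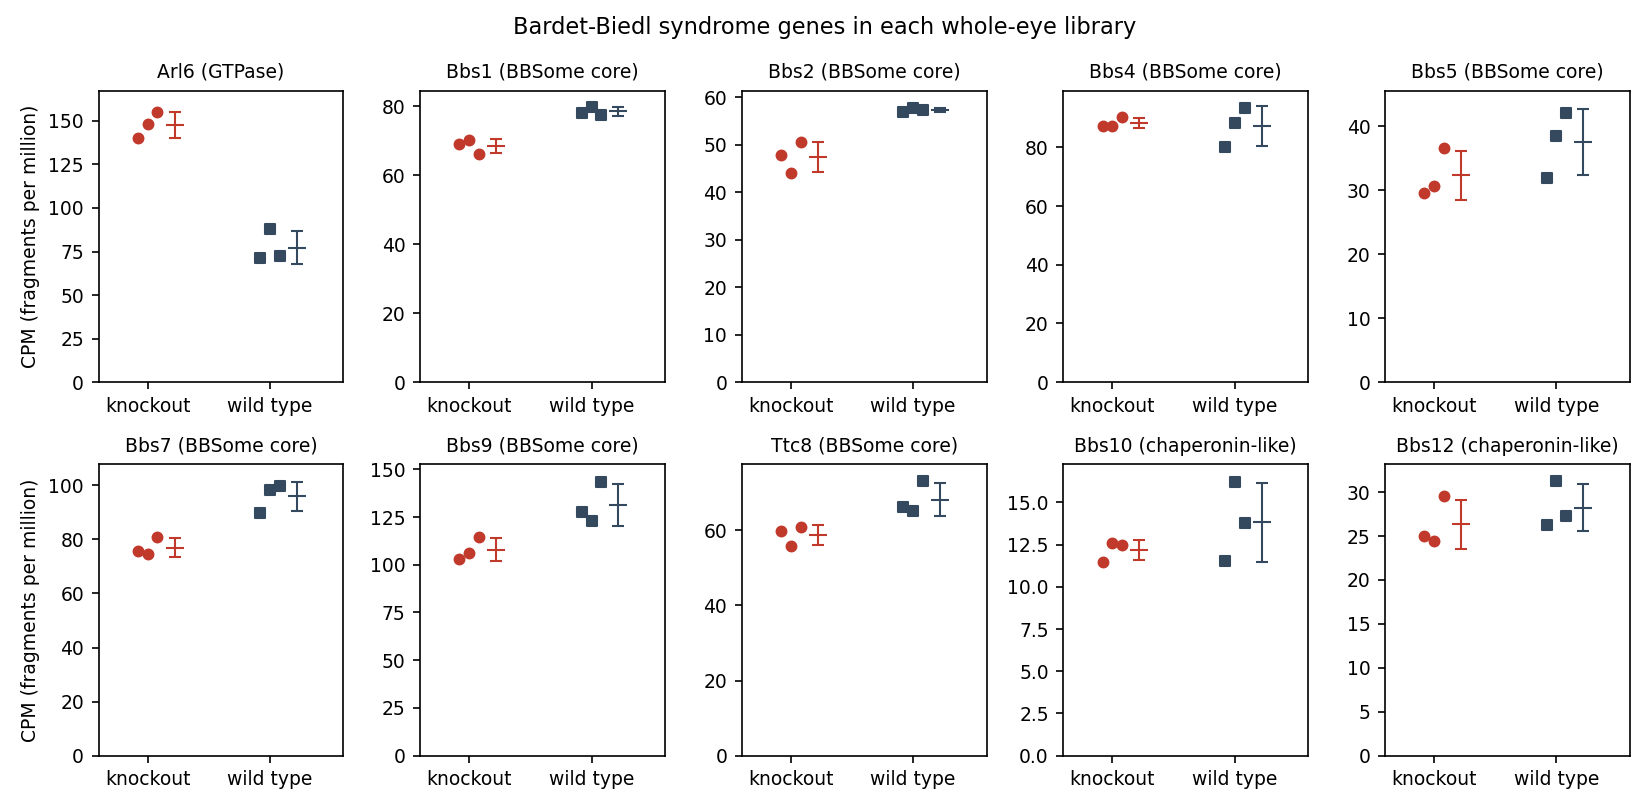
Level of each Bardet-Biedl syndrome gene in CPM in the 3 knockout (left, circles) and 3 wild type (right, squares) libraries, with the mean and SD beside the points. Arl6 is at 140 to 155 CPM in knockout and 71.4 to 88.1 CPM in wild type, while most other genes lie slightly lower in knockout.

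Arl6 is known in a short and a long form, and the long one, called BBS3L, is known from the retina, where photoreceptors need it in mice. The deposited isoform table lists 1 Arl6 transcript, NM_019665, so all Arl6 fragments were assigned to it and the forms were not separated. They are shown here because they differ, among other places, by a short exon that the counts cannot resolve. In GENCODE M21 (build GRCm38) the transcript of that accession has 186 codons, and the transcript Arl6-202 has 193 and holds an additional 13-base exon at chromosome 16, 59618666 to 59618678, minus strand. Arl6-202 has 1554 bases and the transcript without the exon 1696, so they differ outside it too. Both sequences read 5′ to 3′ on the transcript, and capitals mark the additional exon, whose length is not a multiple of 3.
Arl6-202, with the exon: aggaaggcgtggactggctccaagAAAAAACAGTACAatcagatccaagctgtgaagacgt
NM_019665, without it: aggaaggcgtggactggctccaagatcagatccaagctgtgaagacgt

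The deposited interval of Arl6 (mm9, chromosome 16, 59613147 to 60605357) spans 992211 bases and is shared with Epha6, which encodes an ephrin receptor, and with 4930547E14Rik. In RefSeq on GRCm38 the Arl6 gene itself covers 26461 bases. Both had few fragments. Epha6 averaged 6.24 ± 1.56 CPM in knockout and 5.50 ± 0.67 CPM in wild type (SD, n = 3 each; log2 fold change 0.13 ± 0.19, adjusted p = 0.794). The long non-coding RNA 4930547E14Rik, which overlaps the start of Arl6 on the other strand in GRCm38, had 3, 2 and 7 fragments in knockout and 3, 0 and 2 in wild type. Reads of it and of Arl6 cannot be told apart without strand, which is not stated, but its fragments are few beside the 859 to 1642 of Arl6 in knockout libraries and 590 to 1536 in wild type libraries. Of the other genes within 500 kb of this interval, Crybg3 (0.21 ± 0.07, adjusted p = 0.106), Mina (0.05 ± 0.12, adjusted p = 0.884) and Gabrr3 (−0.38 ± 0.15, adjusted p = 0.159) were tested by edgeR and did not pass. The 13 olfactory receptor genes there and 1700022E09Rik had 0 or 1 fragment over all libraries.

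Of the 7 BBSome core genes, 3 fell, beside 3.35% of all genes, and by far less than Arl6 rose. No core gene was called higher in edgeR, the remaining 4 missed the threshold, and 6 had a negative log2 fold change. The median over the 7 was −0.20, beside 0.00 over all genes tested, of which 49.4% were negative. In 5 of the 7 all knockout values lay below all wild type values, a pattern that 11.7% of the tested genes showed.

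The 3 genes that fell were Bbs2, Bbs7 and Bbs9, whose proteins are known to join first into an intermediate on which the rest of the complex is built. No test was made of that coincidence. The falls of the 3 differed by less than their SE. Bbs7 (mm9, chromosome 3, 36472065 to 36512311) had 75.6, 74.4 and 80.8 CPM in knockout, against 89.6, 98.4 and 99.6 CPM in wild type, and the groups did not overlap. That is a log2 fold change of −0.31 ± 0.07 (SE, n = 3 each, edgeR adjusted p = 0.00829), and Bbs7 fell by 19.3%. In the authors' deposited table it had a q-value of 0.0283.

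Bbs9 (mm9, chromosome 9, 22280159 to 22692724), which bridges subunits within the complex, had 103, 106 and 115 CPM in knockout and 128, 123 and 143 CPM in wild type. Again the groups were apart, with a log2 fold change of −0.28 ± 0.07 (edgeR adjusted p = 0.0245). Bbs2 (mm9, chromosome 8, 96591854 to 96622711) had 47.8, 44.1 and 50.5 CPM in knockout and 57.0, 57.8 and 57.2 CPM in wild type, where the libraries were close together. Its log2 fold change was −0.26 ± 0.07 (edgeR adjusted p = 0.0303). In the authors' deposited table the q-values were 0.0862 for Bbs9 and 0.0551 for Bbs2.

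These calls depended on the setting. With a sex term none of the 3 passed in edgeR: Bbs7 had −0.36 (adjusted p = 0.140), Bbs2 −0.38 (0.118) and Bbs9 −0.30 (0.304), each at least as large as without it. Knockout replicate 2 was needed for all 3 calls, since without it the adjusted p was 0.0576 for Bbs7, 0.147 for Bbs2 and 0.112 for Bbs9. Bbs9 did not pass without knockout replicate 1 (adjusted p = 0.107) or wild type replicate 3 (0.107) either. Bbs2 passed only when knockout replicate 3 was the library left out (adjusted p = 0.0309, otherwise up to 0.147), and it did not pass in DESeq2 (adjusted p = 0.0726).

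**Figure D2:**
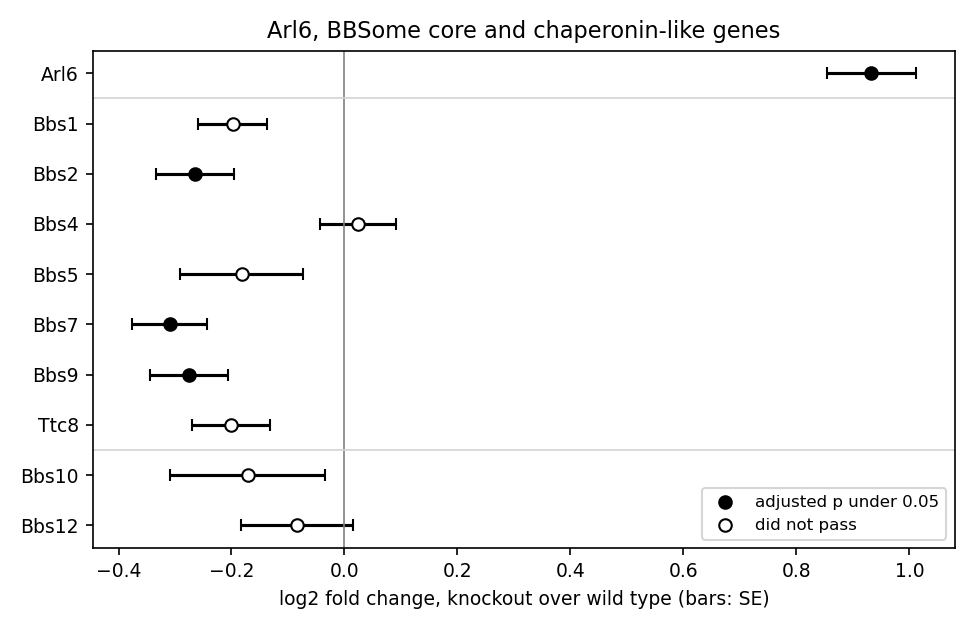
log2 fold change (knockout over wild type) with its SE for Arl6 (top), the 7 BBSome core genes and the 2 chaperonin-like genes, from edgeR with 3 libraries per genotype. Filled circles passed an adjusted p of 0.05: Arl6 at 0.93 and Bbs2, Bbs7 and Bbs9 at −0.26 to −0.31.

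Of the other core genes, Bbs1, the subunit that Arl6 binds, had 69.1, 70.3 and 66.3 CPM in knockout and 78.0, 79.8 and 77.5 CPM in wild type. These values do not overlap, and the log2 fold change of −0.20 ± 0.06 missed the threshold (edgeR adjusted p = 0.0689). Bbs5, which binds membrane phosphoinositides, had 29.6 to 36.6 CPM in knockout and 31.9 to 42.1 CPM in wild type, with overlap (−0.18 ± 0.11, edgeR adjusted p = 0.405). Bbs4, which binds the centriolar satellite protein Pcm1, had close levels: 88.2 ± 1.74 CPM in knockout and 87.3 ± 6.68 CPM in wild type (SD, n = 3 each; 0.02 ± 0.07, edgeR adjusted p = 0.897). With 1 library left out, its log2 fold change ran from −0.04 to 0.07.

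Ttc8, the gene of the subunit BBS8, had 59.8, 55.8 and 60.8 CPM in knockout and 66.2, 65.0 and 73.1 CPM in wild type. All knockout values were lower, but the log2 fold change of −0.20 ± 0.07 did not pass (edgeR adjusted p = 0.108). With a sex term it had −0.28 (edgeR adjusted p = 0.328). Ttc8 is known for an exon used in photoreceptors, called exon 2A in the human gene, whose loss through a splice site mutation causes retinitis pigmentosa without the rest of the syndrome. The 2 Ttc8 transcripts of the deposited table, NM_198311 and NM_029553, differ by such an exon. They also differ elsewhere, since NM_029553, which lacks it, is the longer one (2278 bases, against 2270). In GENCODE M21 (GRCm38) it is exon 2 of 15, 30 bases long, at chromosome 12, 98937120 to 98937149, plus strand. It lies within the coding sequence and keeps the reading frame, with 515 codons in the form that has it and 505 in the form that lacks it. Capitals mark the exon in the sequences, which read 5′ to 3′.
NM_198311, with the exon: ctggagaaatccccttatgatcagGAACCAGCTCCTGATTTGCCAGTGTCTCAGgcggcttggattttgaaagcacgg
NM_029553, without it: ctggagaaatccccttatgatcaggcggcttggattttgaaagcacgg

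The form without the exon took a larger share of Ttc8 in every knockout library. It held 39.4%, 45.9% and 25.7% of the gene's estimated fragments in knockout, against 15.6%, 18.9% and 14.8% in wild type. The shares did not overlap, which held with knockout higher for 6.08% and lower for 6.27% of 4655 isoforms (12.4% in all), and knockout replicate 3 lay nearest to wild type. The means were 37.0 ± 10.3% in knockout and 16.4 ± 2.19% in wild type (SD, n = 3 each), a difference of 20.5 percentage points. An exact two-sided permutation test gave p = 0.1, the smallest that 3 against 3 libraries can give.

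By level, the form without the exon had 23.7, 25.8 and 15.7 CPM in knockout and 10.4, 12.4 and 10.8 CPM in wild type. The form with the exon had 36.5, 30.4 and 45.6 CPM in knockout and 56.2, 52.9 and 62.5 CPM in wild type. Neither pair of groups overlapped in CPM, beside 10.5% of 16546 isoforms with knockout higher and 10.4% with knockout lower (20.9% in all). On the authors' FPKM the form with the exon did overlap, with 9.17 to 16.5 in knockout and 13.0 to 25.0 in wild type. In edgeR over these isoforms, of which 0.55% were called higher and 1.02% lower (1.57% in all), the log2 fold changes were 0.95 ± 0.21 without the exon (adjusted p = 0.116) and −0.60 ± 0.15 with it (adjusted p = 0.171), and neither passed. The form lacking the exon passed only without knockout replicate 3, the library nearest to wild type (1.14, adjusted p = 0.0499). The other fits that left out a library gave adjusted p-values of 0.251 to 0.299. The test of isoform usage, in which 0.0859% of 4655 isoforms were called (0.043% in each direction), gave an adjusted p of 0.614 for the form without the exon (unadjusted p = 0.00456). With a sex term the log2 fold change of that form was 1.21 (adjusted p = 0.173). The split between the forms is an estimate by the authors' software. Fragments at the 30 bases or their junctions bear on it, and so can fragments where the 2 transcripts differ elsewhere. The parts of these in the shares were not tested, so the shares do not measure use of the exon alone.

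**Figure D3:**
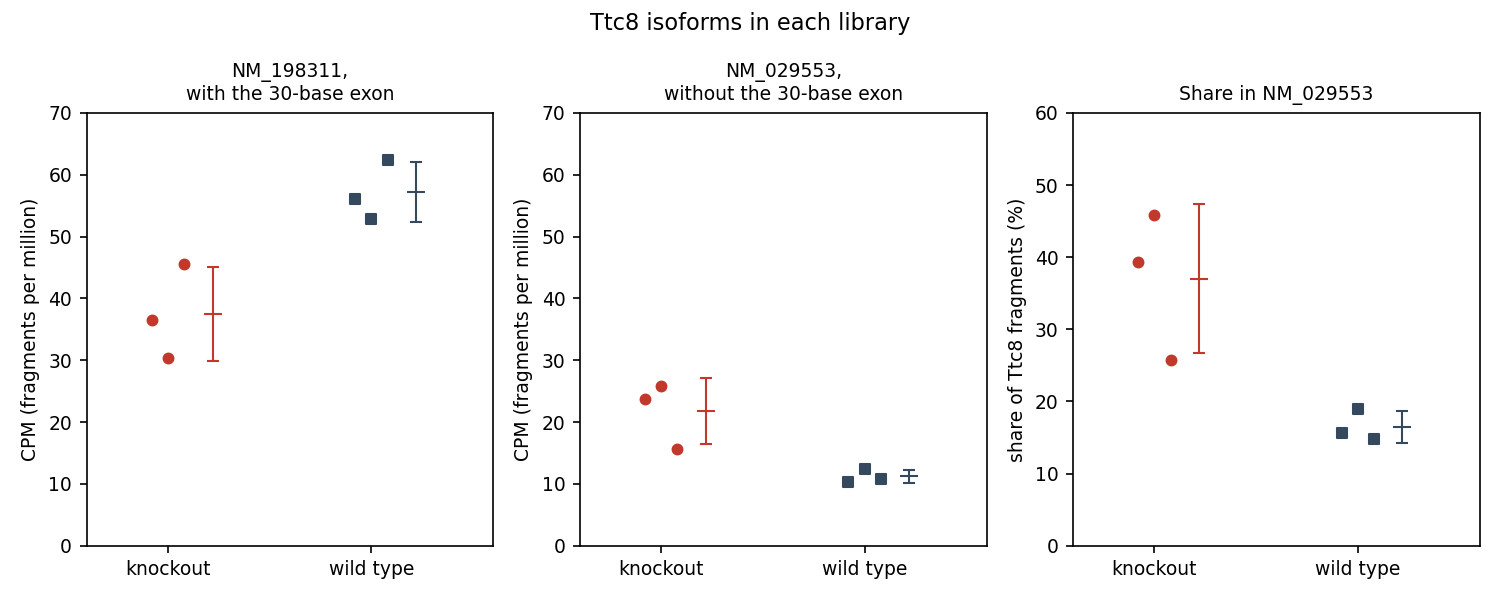
The Ttc8 isoforms NM_198311 (left panel) and NM_029553 (middle panel) in CPM, and the share of Ttc8 fragments in NM_029553 in % (right panel), in 3 knockout (left) and 3 wild type (right) libraries, with mean and SD. The share is 25.7% to 45.9% in knockout and 14.8% to 18.9% in wild type.

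Bbs9 was the only other member with more than 1 isoform, and its shares overlapped. Its form NM_181316 held 64.1%, 67.7% and 57.9% of the fragments in knockout and 68.0%, 70.1% and 57.9% in wild type (exact permutation p = 0.5, two-sided). NM_181316 fell in the fit over isoforms (−0.32 ± 0.05, edgeR adjusted p = 0.0475), and it passed in no fit that left out a library (adjusted p = 0.0839 to 0.178), with a sex term (0.273) or with the replicate block (0.153). NM_178415 had −0.19 ± 0.22 (edgeR adjusted p = 0.803). In that fit the single Arl6 isoform passed (0.94 ± 0.09, adjusted p = 0.0133) and all other members' isoforms did not. The Arl6 isoform kept log2 fold changes of 0.88 to 1.04 with a library left out, but did not pass without knockout replicate 2 (adjusted p = 0.0679) or 3 (0.0578), without wild type replicate 1 (0.0608) or 3 (0.0733), with a sex term (0.0927) or with the replicate block (0.0915).

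The chaperonin-like genes were the lowest members per length, by the means of the authors' FPKM, and neither passed. Bbs10 had 11.5, 12.6 and 12.5 CPM in knockout and 11.5, 16.2 and 13.8 CPM in wild type (−0.17 ± 0.14, edgeR adjusted p = 0.568). Bbs12 had 25.1, 24.5 and 29.5 CPM in knockout and 26.2, 31.2 and 27.3 CPM in wild type (−0.08 ± 0.10, edgeR adjusted p = 0.722). The values overlapped for both genes. Bbs10 rests on 73 to 132 fragments per knockout library and 112 to 248 per wild type library. Bbs12 lies 27201 bases from Fgf2 on chromosome 3 (mm9). Fgf2, a growth factor that protects photoreceptors and is named here after its value was seen, had 15.2 ± 0.191 CPM in knockout and 2.50 ± 0.19 CPM in wild type (SD, n = 3 each). Other genes near Bbs12 were not examined, and a link between Bbs12 and Fgf2 was not tested.

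Arl6 was also set against the core. The ratio of Arl6 to the geometric mean of the 7 core genes in CPM was 2.22, 2.37 and 2.30 in the knockout libraries and 1.01, 1.19 and 0.924 in the wild type libraries. The core mean itself was 63.1, 62.3 and 67.3 CPM in knockout and 70.4, 74.2 and 78.4 CPM in wild type. Every knockout library was below every wild type library for the core mean and above it for Arl6. CPM is not corrected for transcript length, so the ratio compares libraries and not the levels of the genes.

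**Figure D4:**
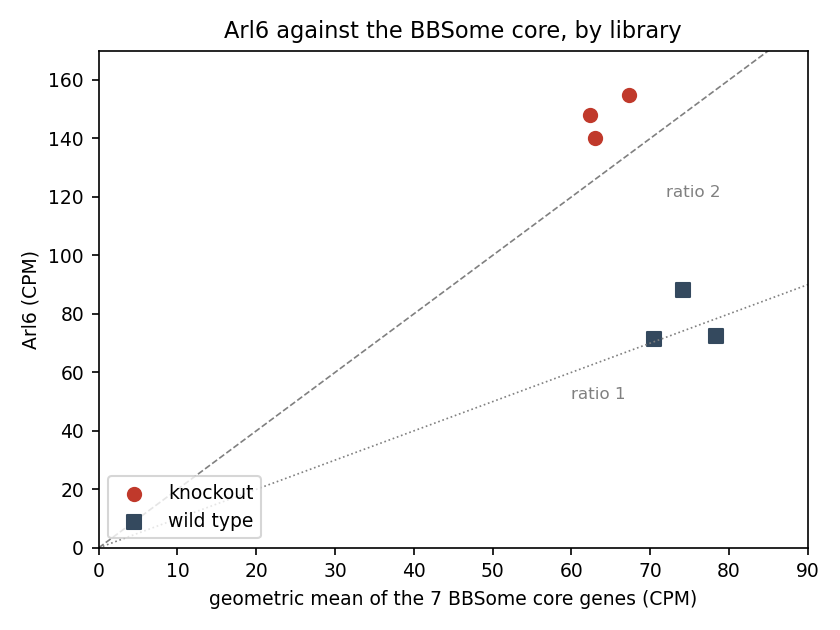
Arl6 (vertical axis) against the geometric mean of the 7 BBSome core genes (horizontal axis), both in CPM, in each of the 3 knockout (circles) and 3 wild type (squares) libraries, with grey lines at ratios of 1 and 2. The knockout libraries lie at ratios of 2.22 to 2.37 and the wild type libraries at 0.924 to 1.19.

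Per length, on the authors' FPKM, Arl6 was the highest member in both genotypes, at 83.0 ± 10.8 FPKM in knockout and 42.7 ± 5.81 FPKM in wild type (SD, n = 3 each). In wild type the order went on with Bbs9 (34.8 ± 5.97 FPKM), Bbs7 (27.4 ± 6.65), Bbs4 (25.4 ± 7.11), Ttc8 (22.4 ± 6.67), Bbs5 (20.4 ± 8.69) and Bbs2 (20.3 ± 1.99), and each of these overlapped its neighbour, as did Arl6 and Bbs9. Within each wild type library, however, Arl6 was above Bbs9 and Bbs9 above Bbs7. Bbs1 (13.1 ± 0.87), Bbs12 (8.63 ± 2.19) and Bbs10 (4.19 ± 0.934) followed, and the wild type values of each lay below all those of the gene before it. Bbs1 did overlap Bbs5, and in wild type replicate 2 Bbs1 (14.1 FPKM) lay above Bbs5 (13.8 FPKM). In knockout Bbs4 (26.3 ± 5.80 FPKM) stood above Bbs7 (22.2 ± 4.29 FPKM), and the rest kept the order by their means. Within knockout replicate 3, however, Bbs5 lay above Bbs2, and Bbs12 (11.3 FPKM) above Bbs1 (10.9 FPKM). The lowest Arl6 value in knockout, 76.3 FPKM, was far above the highest of Bbs9 in knockout, 33.6 FPKM.

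**Figure D5:**
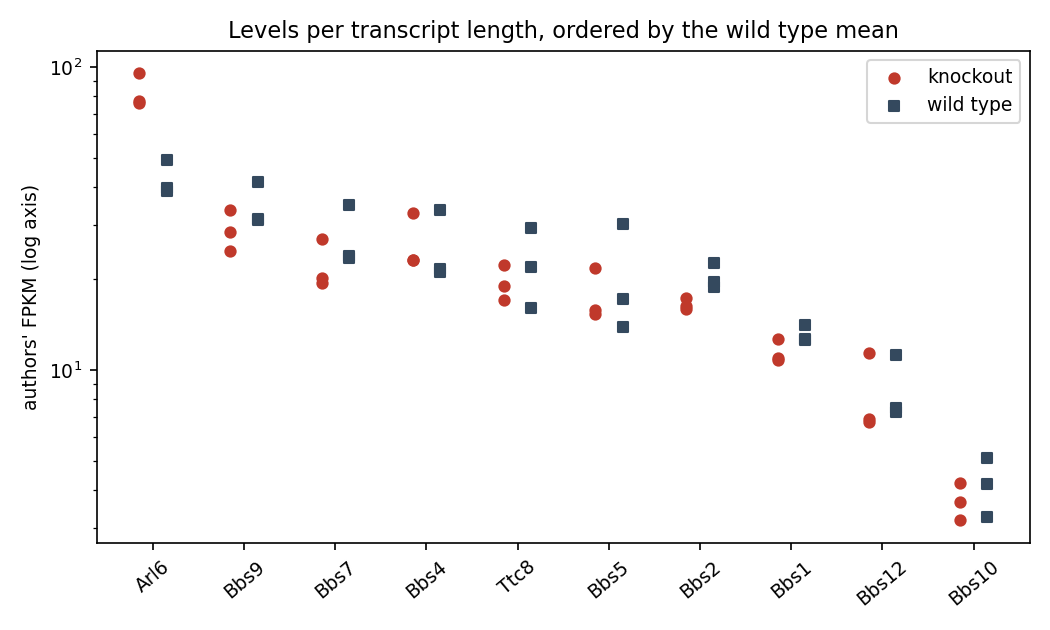
The authors' FPKM of each gene (log axis) in 3 knockout (circles) and 3 wild type (squares) libraries, ordered by the wild type mean. Arl6 lies at 76.3 to 95.5 FPKM in knockout, apart from the other members, and at 39.0 to 49.4 FPKM in wild type, where it overlaps Bbs9.

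The wider set of syndrome genes made no call. Of 14 further genes tied to the syndrome or modifying it, 13 were matched and tested, and 0 passed in either direction in edgeR (median log2 fold change −0.10). At an unadjusted p under 0.05 there was 1, Trim32, a ubiquitin ligase gene (−0.16 ± 0.07, edgeR adjusted p = 0.210), and DESeq2 called 0. The share of all genes at that unadjusted threshold is not given here, so the list counts at it have no background beside them. Bbip1, the remaining subunit of the BBSome, had 39.6 ± 2.71 CPM in knockout and 44.0 ± 4.82 CPM in wild type (SD, n = 3 each; −0.15 ± 0.09, edgeR adjusted p = 0.408). Mkks, the third chaperonin-like gene, had 32.8 ± 1.16 CPM in knockout and 36.2 ± 1.95 CPM in wild type (−0.14 ± 0.08, edgeR adjusted p = 0.356). None of the 8 genes of the CCT chaperonin, with which these proteins form a complex, passed in edgeR (median −0.01, 0 at an unadjusted p under 0.05) or in DESeq2.

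Among other ARF-like GTPases and their partners, 20 of 23 were tested, 3 fell and 0 rose, beside 3.35% and 2.89% of all genes. At an unadjusted p under 0.05 there were 4, the 3 that fell and Arl3 (−0.18 ± 0.06, edgeR adjusted p = 0.121). Arl4d, a membrane-bound member of the family, fell to 45.0 ± 0.848 CPM in knockout, against 72.4 ± 2.22 CPM in wild type (SD, n = 3 each; −0.69 ± 0.06, edgeR adjusted p = 4.94e-06). Unc119, a photoreceptor carrier of lipid-modified proteins that Arl3 unloads, fell to 527 ± 28.6 CPM in knockout, against 707 ± 26.2 CPM in wild type (−0.42 ± 0.07, edgeR adjusted p = 0.000650). Both passed with a sex term and without knockout replicate 2 (adjusted p = 0.000121 for Arl4d and 0.00746 for Unc119). Arl13b, a ciliary GTPase mutated in Joubert syndrome, was at the threshold (−0.33 ± 0.09, edgeR adjusted p = 0.0495) and did not pass without knockout replicate 1 (0.195) or 2 (0.0817), without wild type replicate 2 (0.183) or 3 (0.0946), with sex (0.633) or in DESeq2 (0.0515). Arl6 was the only ARF-like gene tested here that rose.

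The BBSome travels on intraflagellar transport trains, and of 18 genes of their complex B 17 were tested. Ift57 rose, with 30.5 ± 2.01 CPM in knockout and 22.8 ± 1.40 CPM in wild type (SD, n = 3 each; 0.44 ± 0.09, edgeR adjusted p = 0.00543, 0.298 with sex and 0.0179 without knockout replicate 2), and 0 fell. Of all genes, 2.89% were called higher and 3.35% lower. Ift57 was also the only gene of this list at an unadjusted p under 0.05. Of 8 genes of the Rab8 route, which carries membrane to the cilium, 0 passed in edgeR or DESeq2, and 0 had an unadjusted p under 0.05. Of 10 genes whose proteins are known to need the BBSome for their place in cilia or outer segments, 9 were tested. Of these 1 fell, beside 3.35% of all genes. It was Stx3, a membrane fusion protein that collects in the outer segment when the BBSome is missing, with 363 ± 6.43 CPM in knockout and 437 ± 11.7 CPM in wild type (−0.27 ± 0.06, edgeR adjusted p = 0.0116). Stx3 did not pass without knockout replicate 2 (adjusted p = 0.0537) or with sex (0.186). At an unadjusted p under 0.05 this list had 2 genes, Stx3 and Drd1 (−0.29 ± 0.10, edgeR adjusted p = 0.106).

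Markers of several cell types differed as well. The summed level of the 13 rod markers was 21303 to 24017 CPM in knockout and 33771 to 34662 CPM in wild type, with a median log2 fold change of −0.52, and that of 6 cone markers 439 to 449 CPM in knockout and 653 to 683 CPM in wild type. The core median of −0.20 lies between that of the rod markers and 0, and the difference was not tested. The summed level of 6 microglial markers was 200 to 227 CPM in knockout and 133 to 150 CPM in wild type. Of 3 genes of motile cilia, 1, Foxj1, passed the filter, with 2.58 to 4.91 CPM in knockout and 3.19 to 4.51 CPM in wild type. Of 6 bipolar cell markers Pcp2 and Prkca fell, of 5 Mueller glia markers Glul fell and Aqp4 rose, of 2 tested pigment epithelium markers Rpe65 fell, and of 3 cornea markers Krt12 rose. Of these, Aqp4 alone passed with a sex term, and Glul and Aqp4 passed without knockout replicate 2. Microglial markers passed 4 of 6 without it. With all libraries and no sex term, 2.89% of all genes were called higher and 3.35% lower. The part of these cell types in the values of the Bardet-Biedl syndrome genes was not tested.

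The genes whose profile over the 6 libraries lay nearest to that of Arl6, by the root mean square difference of centred log2 CPM among 14883 genes, were Lin7b (0.0729), E2f6 (0.0863), Kif14 (0.101), 2210012G02Rik (0.101) and Setdb2 (0.103). That all 5 were higher in knockout follows from this choice. E2f6, a repressor of the E2F family, had 49.8 ± 4.26 CPM in knockout and 26.7 ± 1.32 CPM in wild type (SD, n = 3 each). Setdb2, which encodes a histone methyltransferase family member, had 20.0 ± 0.195 CPM in knockout and 11.3 ± 1.32 CPM in wild type. Lin7b and Kif14 had means under 5 CPM in both genotypes.

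Many BBS genes are known targets of RFX factors, which bind an element called the X-box. The core of that motif, GTTGCC and GG with any pair of bases between them, chosen after the promoter windows had been seen, was searched on both strands in the RefSeq promoter windows (GRCm38.p6), which run from 250 bases before to 50 after a gene's start. It was in 2 of the 10 members' windows, Bbs1 and Bbs7, and in 2.29% of 27025 windows of that length. Short excerpts show these matches, in capitals, from the windows chr19:4906578-4906877 (Bbs1) and chr3:36613340-36613639 (Bbs7), both read on the minus strand.
Bbs1: ggctgagctgGTTGCCAAGGcgacgcctgg
Bbs7: atgcgccccgGTTGCCTTGGaaaccggcca
The windows of Arl6 and of the other members did not hold this exact core. X-boxes that depart from it were not searched for, so a window without it may still hold an X-box. GTTGCC alone, which the core contains, was in the windows of Bbs1, Bbs5 and Bbs7 and in 12.7% of all windows. The motif TAATCC, a core of sites of the photoreceptor factor Crx, was in the window of 1 member, Bbs1, and in 7.16% of all windows, and not in that of Arl6.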

How the data were processed

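The submitters' processing notes name Cuffdiff 2.2.1, Cufflinks 2.2.1 and TopHat2 2.0.12 and build mm9. What each library's rows hold was read from the headers: the authors made an estimated count of fragments for every gene and isoform, unnormalized, and deposited FPKM per library and genotype beside it. Their comparison carries deposited p-values and q-values. Estimated counts were rounded to whole numbers. The tables give a library's genotype and a number from 0, while the labels count from 1. So only the genotype of a library is certain, and libraries (also called replicates) are named 1 to 3 in the order of the tables' numbers. The 7 genes and 12 isoforms with a failed estimate were left out.

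Genes were tested with edgeR 4.0.16 (R 4.3.3): scaling by TMM, a low-count filter by filterByExpr with a count of 10 and a total of 15, then its quasi-likelihood test between genotypes in the 6 libraries. Isoforms with a mean FPKM of at least 1 were tested likewise, and their usage with diffSpliceDGE. SEs are the absolute log2 fold change over the root of the F statistic. Isoform shares were compared with scipy 1.17.1. Arl6 has 1 isoform, so its share could not be tested. The fits were tested on simulated data. For genes, 74% of 1.5-fold and 99% of 2-fold changes were recovered, with 15 false calls. For isoforms these were 75%, 97% and 11. Changes as small as those of the core genes were not simulated. The simulation gave every gene or isoform the same set spread and planted changes only above a set level. It held no sex difference and no error in the split of fragments between isoforms, so its recovery need not hold for these libraries. Alternatives were DESeq2 1.42.0, other scaling and filters, libraries left out, a replicate block, a sex term taken from Xist and 4 Y-linked genes, and limma 3.58.1 on FPKM. The authors' FPKM does not follow CPM exactly, and the third library of each genotype is high in it for most members.

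Named were all 10 members, all Arl6 isoforms, other members' isoforms past the threshold, up to 4 passing genes of each other list, genes within 500 kb of Arl6 and the 5 genes nearest to it in profile. The Ttc8 isoforms, Trim32, Bbip1, Mkks and the motifs were chosen after values were seen. The members and lists were chosen with earlier results of these data known. In the list of other genes 1 symbol, Cfap418, had no match.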

Additional observations from a re-analysis of the deposited data

How the results depend on the processing

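Arl6 kept its direction in all 15 alternatives (0.87 to 1.04) and its call in all but limma on FPKM, where log2 fold changes were 0.94 with a pseudocount of 1, 0.96 with 0.1 and 0.94 with no filter (adjusted p = 0.112, 0.123 and 0.166). In those 3 fits 0 members were called higher and 0 lower, and of all genes 14, 6 and 9 were called higher and 4, 3 and 5 lower. With sex as a covariate 1 member was higher and 0 lower, against 91 and 144 of all genes, and in the Xist-positive libraries alone 1 and 0, against 96 and 149. With 1 library left out, 0 to 3 members were lower, and 271 to 425 of all genes higher and 315 to 460 lower. Why these counts fell was not tested. Correlations of the deviations of same-numbered libraries were 0.139, 0.0790 and −0.0415, and 3 of 6 libraries correlated best with their own number. Whether libraries pair was not tested, and their numbers only name them. With the replicate block, 1 member was higher and 4 lower (Ttc8 passed, −0.21, adjusted p = 0.0480), against 558 and 611 of all genes. Precision is limited by 3 libraries per genotype, and the part of depth was not tested.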
